A study of Mus musculus with 6 samples.

Results

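Apolipoprotein-high proximal enterocytes are the absorptive cells of the mouse small-intestinal lining that carried the most apolipoprotein transcript. They were chosen barcode by barcode from measured RNA molecules (UMIs). A barcode needed at least 500 detected genes and at most 25% mitochondrial UMIs. Apoa1, Apoa4 and Apoc3 together had to make at least 40 of its 10000 UMIs, Fabp6 under 20, and the goblet cell genes Zg16, Clca1, Fcgbp and Muc2 together under 30, with no UMI of Ada. These limits kept 954 cells, 3.66% of the 26045 barcodes that passed the gene and mitochondrial limits and part of 26153 barcodes in all. The cells came from 6 droplet libraries of small-intestinal epithelium from C57BL/6J mice aged 8 weeks, 3 labelled Itgb7 KO (genotype Itgb7-/-) and 3 labelled wild-type. Libraries labelled Itgb7 KO are called KO-labelled below, and values of a group stand in the order of its replicates 1, 2 and 3. KO-labelled libraries held 88, 351 and 78 of the cells and wild-type libraries 142, 186 and 109. Per its title, the study asked how T cells with integrin αEβ7 direct the fate of intestinal stem cells. The labels do not say whether a library was 1 animal or a pool, nor how Itgb7 was inactivated, so what the p-values capture is library-to-library spread, which may be technical.

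Enterocytes of the duodenum and jejunum take up most dietary fat. They carry fatty acids on the cytosolic binding proteins Fabp1 and Fabp2, rebuild triglyceride, and load it with the transfer protein Mttp onto apolipoprotein B (Apob) to make chylomicrons, the particles that enter the lymph. Apoa1 is the main protein of high-density lipoprotein, Apoa4 rides on chylomicrons, and Apoc3 slows the clearance of triglyceride-rich particles. In the mouse the 3 genes lie side by side on chromosome 9. Rbp2 carries retinol in these cells, and Lct encodes lactase, which splits milk sugar. Bile acids are taken back in the ileum, where Fabp6 binds them inside the cell, and Ada marks cells near the villus tip.

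Over the whole series the libraries held 28475253 to 62224718 UMIs when KO-labelled and 63316811 to 76133693 when wild-type. The smallest UMI total of any barcode was 7754 and 13621 in replicate 1 of KO-labelled and wild-type libraries and 1417 to 2946 in the other 4 libraries. Itgb7 transcripts ran against the label, with 18, 33 and 12 UMIs in KO-labelled libraries and 3, 8 and 2 in wild-type libraries. The groups did not overlap. A 3' tag can lie outside a deleted part, so the counts do not check the labels, and from these files a transcript that outlasts the deletion and an exchange of labels cannot be told apart. The chosen cells held 3 Itgb7 UMIs, all in KO-labelled replicate 2. Paneth cell transcripts separated replicate 1 of both groups from the other libraries, also inside the chosen cells. Library pairs shared 12 to 42 barcode sequences, and no shared sequence was a chosen cell in both. Of the chosen cells 3 (0.314%) were among the highest doublet scores, against 969 (3.72%) of all barcodes kept.

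The 3 apolipoproteins that defined the cells were unequal. Apoa1 (ENSMUSG00000032083, chr9:46228580-46230466, plus strand of mm10) was at 9039.8, 7250.1 and 5664 CPM in KO-labelled libraries and 8304, 7323 and 5335 CPM in wild-type libraries, where CPM is UMIs per 1000000 UMIs summed over the chosen cells of a library. Apoa4 (ENSMUSG00000032080, chr9:46240696-46243459, plus strand) was at 2033, 1550.4 and 1225 CPM in KO-labelled libraries and 1325, 1589 and 413 CPM in wild-type libraries, and Apoc3 (ENSMUSG00000032081, chr9:46232933-46235636, minus strand) at 531, 525 and 517 CPM in KO-labelled libraries and 583, 604 and 499 CPM in wild-type libraries. Apoa1 made 76.5% to 77.9% of the sum in KO-labelled libraries and 77.0% to 85.4% in wild-type libraries, and every chosen cell held at least 1 Apoa1 UMI. The low Apoa4 of wild-type replicate 3 stood apart from the other 5 libraries, and its Apoa1 was also the lowest. Since these genes chose the cells, their levels are a description and were not tested.

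Apolipoprotein sums thinned out without a gap at the limit. Of the chosen cells 202 (21.2%) had a sum of 40 to 50 per 10000, just inside it, and 322 otherwise similar barcodes lay just outside, at 30 to 40. A sum of at least 80 was found in 405 cells and of at least 160 in 112. The median sum was 86.0, 78.8 and 59.7 per 10000 in KO-labelled libraries and 77.3, 71.8 and 57.6 in wild-type libraries. The highest single cell reached 412, 311 and 188 in KO-labelled libraries and 369.8, 291 and 159 in wild-type libraries. Replicate 3 of each group thus held the lowest sums. Of the barcodes that met the apolipoprotein limit, 1004 in all, the limits on Fabp6, Ada and goblet genes took out 26, 18 and 7, together 50. Cells with a goblet gene sum of at least 30 per 10000 with an apolipoprotein sum under 40 (goblet-gated cells), used as a measure of free RNA, had an apolipoprotein sum of 58.8 to 193 CPM over the 6 libraries.

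**Figure D1:**
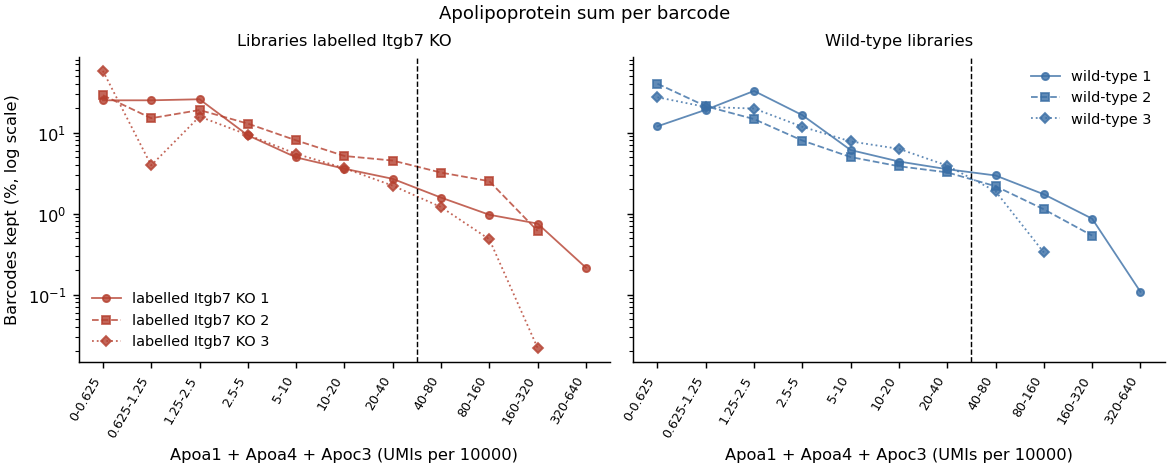
Share of kept barcodes (%, log axis) by the sum of Apoa1, Apoa4 and Apoc3 (UMIs per 10000, doubling bins), 1 line per library, KO-labelled on the left and wild-type on the right. The dashed line marks the limit of 40; shares go down across it without a gap, and wild-type replicate 3 has no barcode at 160 or above.

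Both other markers of the name, the retinol carrier Rbp2 and lactase, were present, in cells that were chosen on apolipoproteins. Rbp2 (ENSMUSG00000032454, chr9:98486115-98509781, plus strand) was detected in 99.9% of the cells, against 68.7% of goblet-gated cells, with median depths of 11514 and 12334 UMIs. After thinning each cell to 3000 UMIs these shares were 97.9% and 26.9%. Lct (ENSMUSG00000026354, chr1:128284756-128328318, minus strand) was detected in 57% of the cells and in 2.71% of goblet-gated cells, or 28.1% and 0.498% after thinning. Rbp2 and Lct together were at 4741 to 11905 CPM in the chosen cells and at 486 to 1026 CPM in all other kept barcodes, and both genes were higher in the chosen cells of all 6 libraries. The ileal bile acid transporter Slc10a2 had a UMI in 4 cells (0.419%), close to the 0.215% of goblet-gated cells.

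Markers of other epithelial cell types summed to less in the chosen cells than in the other barcodes of every library. Stem cell markers (9 genes) summed to 69.0 to 118 CPM, against 294 to 529 CPM elsewhere, and proliferation markers (10 genes) to 157 to 255, against 878 to 1254 CPM. Goblet markers (8 genes) summed to 1102 to 3340 CPM, against 19374 to 28311 CPM, and 74 of the 92 chosen cells above the middle of the allowed goblet range came from wild-type replicate 1. Paneth markers (10 genes) were at 3326, 173 and 184 CPM in KO-labelled libraries and 6723, 169.8 and 342 CPM in wild-type libraries, so replicate 1 of each group stood far above the rest. Enteroendocrine markers (13 genes) were at 73.4 to 183 CPM and tuft cell markers (10 genes) at 0 to 6.51 CPM. T cell markers lay between 0 and 2.93 CPM, against 0.24 to 3.05 CPM elsewhere, with 9 of 13 at 0 UMIs, among them Cd3d, Cd8a and Ptprc. Other immune markers were at 1.83 to 3.03 CPM (5 of 9 at 0) and stromal and endothelial markers at 0.444 to 1.84 CPM (7 of 9 at 0).

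Outside mitochondrial transcripts, the cells were led by ferritin and by fat and vitamin carriers. Fth1, the iron-storing ferritin heavy chain, averaged 10842 ± 694 CPM (SD, n = 6 libraries). Rbp2 averaged 9137 ± 2592 CPM and Fabp1 9081 ± 3208 CPM (SD, n = 6 each). Reg3b, an antimicrobial lectin, had a like mean of 9119 CPM but a SD of 7523. It ran from 3259 CPM in wild-type replicate 3 to 23128 CPM in wild-type replicate 1. Its paralogs Reg3g and Reg3a are close in sequence, so counts of single Reg3 genes may share reads. Per-cell depth differed, with medians of 17973, 10111 and 6885 UMIs per chosen cell in KO-labelled libraries and 21185, 11847 and 12069 in wild-type libraries. Mitochondrial genes made a median of 4.93% to 6.70% of a chosen cell's UMIs, higher in each library than over all its kept barcodes (3.46% to 5.07%).

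Several enterocyte genes outside the rule stood higher in each step of the apolipoprotein sum. Barcodes were divided into 7 bands from 0 to 5 up to 160 or more per 10000, with the other limits held, and each band summed per library. The lowest band held 14570 barcodes, that from 20 to 40 held 848 and the highest 112. Bands below the limit were not restricted to enterocytes. Steps between bands can thus mix cell type with level, and these were not told apart. Fabp1 averaged 483 ± 211 CPM in the lowest band, 6051 ± 2142 CPM at 40 to 80 and 19210.5 ± 4186 CPM at 160 or more (SD over libraries). Lct, at 2.26 CPM in the lowest band, had 43.7 CPM just below the limit, 84.8 CPM just above it and 292 CPM in the highest band. Slc2a2, the glucose transporter that lets sugar out towards the blood, stood at 2.64 CPM in the lowest band and 259.6 CPM in the highest. Apob had 33.6 CPM in the lowest band and 524 CPM in the highest, and Anpep, the brush border peptidase aminopeptidase N, 90.1 and 1634 CPM. The highest band holds no cell of wild-type replicate 3 and 1 cell of KO-labelled replicate 3, so its means rest on 5 libraries.

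Not every enterocyte gene had a higher mean in each step. Alpi, the intestinal alkaline phosphatase, had 70.8 CPM in the lowest band, 303 CPM just below the limit and 303 CPM in the highest band. Creb3l3, a membrane-bound transcription factor of lipid genes, had 11.6 CPM in the lowest band and 187 CPM just above the limit. It had 267 CPM in the next band and 266 CPM in the highest. There the 1 cell of KO-labelled replicate 3 gave 97.3 CPM for both Alpi and Creb3l3. The other libraries of that band had Creb3l3 at 259 to 377 CPM, against 221 to 311 CPM in the band before. Only KO-labelled replicate 1 among them was lower in the highest band. Antimicrobial Reg3g was highest at 40 to 80, with 5114 CPM, and had 3943 CPM in the highest band. Rbp7, another retinoid-binding protein, had 245 CPM in the lowest band and 283 CPM from 5 to 10, and ran the other way from there. In the highest band it had 62.9 ± 75.9 CPM (SD over libraries). There the 1 cell of KO-labelled replicate 3 gave 194.6 CPM, and the other libraries of that band had 16.9 to 61.6 CPM. The division marker Mki67 stood at 71.3 CPM in the lowest band and at 7.63 CPM from 20 to 40. It was at 8.76, 7.81 and 4.16 CPM in the bands of the chosen cells, with a spread between libraries nearly as large as the mean or larger.

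**Figure D2:**
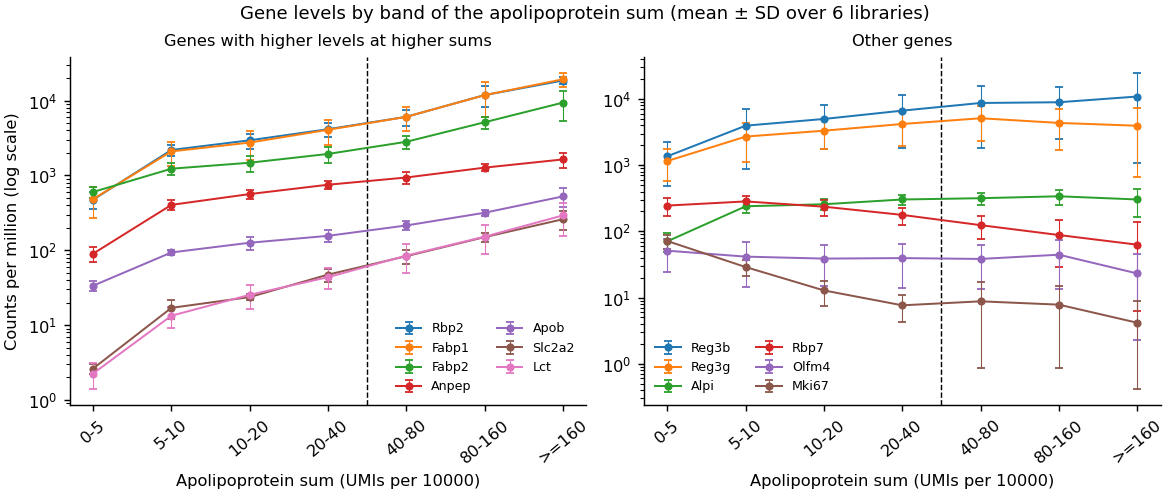
Mean level (CPM, log axis) of named genes by band of the apolipoprotein sum (UMIs per 10000); bars are SD over libraries, and lower bars longer than the mean are drawn down to a small fraction of it. Left of the dashed line are barcodes below the limit, of any cell type that met the other limits. Lct and Slc2a2 stood at 292 and 259.6 CPM in the highest band, while Alpi was nearly level from 20 upwards.

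Among the chosen cells themselves, Fabp2, Rbp2, Fabp1 and Mttp varied most closely with the apolipoproteins. The likeness was Spearman's rho between a gene's level and the apolipoprotein sum over the cells of a library, taken as the median over 6 libraries, for the 5033 genes with a UMI in at least 20% of the cells. It is a description, since all points share a library, a depth and a total that both levels are divided by. The 10 highest were Fabp2 (0.59), Rbp2 (0.55), Fabp1 (0.52), Mttp (0.50), Cgref1 (0.48), Acsl5 (0.46), Scp2 (0.45), 2010003K11Rik (0.42), Leap2 (0.41) and Gpx4 (0.40). Acsl5 activates fatty acids, Scp2 is a sterol carrier, Leap2 blocks the ghrelin receptor, and Gpx4 detoxifies oxidised lipids. Other genes of lipid uptake stood well below them, with Apob at 0.31, Dgat1 at 0.11, the cholesterol importer Npc1l1 at 0.06 and Pla2g12b at −0.01. For Fabp2 the value ran from 0.40 in wild-type replicate 3 to 0.75 in KO-labelled replicate 1. Wild-type replicate 3, with its narrow range of sums, gave the lowest value for each of these 10 genes. Ribosomal protein genes lay at the other end, with Rps18 at −0.60, beside Lgals2, a galectin, at −0.57. The median of all 5033 genes was −0.02, and 127 genes were above 0.2.

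Promoters of these genes were read next. RefSeq's table for GRCm38.p6 matched 12 of the 14 genes looked for (the 3 apolipoproteins, Lct and the 10 above, without Apoc3 and Leap2). In the 250 bases before each start, on both strands, 2 short strings were sought. The core bound by HNF4 factors, CAAAGTNCA (TGNACTTTG on the other strand), occurred in 392 of 32851 promoters of that length (1.19%), and the GATA core AGATAA, whose other strand reads TTATCT, in 3281 (9.99%). The HNF4 core was found before Apoa4, Fabp2 and Rbp2 and the GATA core before Rbp2 and Lct. The other 8 matched genes, Apoa1 and Fabp1 among them, held neither string in this window. The windows shown belong to the rule gene Apoa4 and to both other markers of the name, and each holds a match. That of Apoa1, also a rule gene, held none and is not shown. The windows shown read 5′ to 3′ on the gene's strand with the matched cores in capitals. They are chr9:46240594-46240843 (plus strand) for Apoa4, chr9:98490287-98490536 (plus strand) for Rbp2 and chr1:128328319-128328568 (minus strand) for Lct.
Apoa4: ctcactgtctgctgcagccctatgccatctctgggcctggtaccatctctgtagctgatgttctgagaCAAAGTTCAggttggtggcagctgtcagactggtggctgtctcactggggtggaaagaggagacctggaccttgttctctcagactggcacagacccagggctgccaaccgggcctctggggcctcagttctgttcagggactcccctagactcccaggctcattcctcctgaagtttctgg
Rbp2: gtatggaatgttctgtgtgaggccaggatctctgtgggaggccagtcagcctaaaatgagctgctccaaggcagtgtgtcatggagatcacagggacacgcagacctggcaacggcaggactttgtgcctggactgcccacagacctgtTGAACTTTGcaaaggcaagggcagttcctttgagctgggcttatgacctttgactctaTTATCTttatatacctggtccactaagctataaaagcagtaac
Lct: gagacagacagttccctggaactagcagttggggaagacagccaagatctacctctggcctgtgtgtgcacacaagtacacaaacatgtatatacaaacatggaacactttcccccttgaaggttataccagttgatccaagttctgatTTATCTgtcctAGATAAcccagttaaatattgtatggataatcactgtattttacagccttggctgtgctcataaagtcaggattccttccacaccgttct
Counted back from the first transcribed base, the HNF4 core lies at −182 to −174 before Apoa4 and at −101 to −93 before Rbp2. The GATA core lies at −43 to −38 before Rbp2 and at −101 to −96 and −90 to −85 before Lct. RefSeq's starts of Apoa4 and Rbp2 differ from those of the gene annotation used for positions elsewhere. A match is only a string of letters, and no binding was measured here.

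Against ileum-type absorptive cells the chosen cells carried far more fat, sugar and retinol machinery. The comparison class was 701 Fabp6-high enterocytes of the same libraries (78, 78 and 100 in KO-labelled and 107, 131 and 207 in wild-type libraries), with Fabp6 at least 20 per 10000 and the same goblet limit; 25 of them also met the apolipoprotein limit. Sums per library and class were fitted with edgeR's quasi-likelihood test with the library as a block, and adjusted p-values (Benjamini-Hochberg) under 0.05 over 8788 genes outside the rule were called. The test called 2137 genes higher (24.3%) and 1812 lower (20.6%). Both classes were picked on a few genes of the same cells, so genes that vary with the apolipoproteins or with Fabp6 differ in part by construction, and these values describe the gates. Proliferation markers moved along, at 157 to 255 CPM in the apolipoprotein-high cells and 357 to 662 CPM in the Fabp6-high cells, with 8 of 10 lower and 1, Pcna, higher; their part in the differences was not tested. Stem cell markers were lower in 2 of 7 cases and goblet markers in 3 of 7, with 0 higher, and 0 of 10 Paneth markers were called.

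Lipid genes were higher almost throughout. Of 26 tested genes for lipid uptake and chylomicron assembly, 24 were called higher and 0 lower, with a median log2 fold change of 1.25 where that of all genes was −0.01. Fabp1 had 4139 to 13254 CPM (median 8943) in the apolipoprotein-high cells and 60.5 to 453 CPM (median 128) in the Fabp6-high cells. Its log2 fold change was 5.97 ± 0.18 (SE, edgeR adjusted p = 4.8e-19), and the classes lay far apart in all 6 libraries. Fabp2 had 2384 to 6722 CPM (median 4065) in the apolipoprotein-high cells and 406 to 882 CPM (median 542) in the Fabp6-high cells, a log2 fold change of 2.96 ± 0.08 (SE). Fold changes were 2.20 ± 0.07 for Mttp, 2.1 ± 0.09 for Apob, 2.12 ± 0.08 for Acsl5 and 1.04 ± 0.06 for Dgat1, which makes the last step of triglyceride synthesis (log2 ± SE). The fatty acid receptor Cd36 was rare, at 9.86 to 53.3 CPM and 0.725 to 5.03 CPM in the apolipoprotein-high and the Fabp6-high cells, a log2 fold change of 3.51 ± 0.26 (SE).

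Vitamin A genes went the same way, with 8 of 10 called higher and 0 lower (median log2 fold change 1.95). Rbp2 had 10188, 11814 and 10902 CPM in KO-labelled libraries and 7788, 9496 and 4635 CPM in wild-type libraries. In the Fabp6-high cells it had 146, 609.9 and 126 CPM in KO-labelled libraries and 204, 129 and 185 CPM in wild-type libraries. The classes did not overlap in any library, and the log2 fold change was 5.54 ± 0.19 (SE; edgeR adjusted p = 2.6e-18). The retinol and retinaldehyde dehydrogenases Adh1, Aldh1a1 and Rdh7 had log2 fold changes of 3.69, 3.88 and 3.29. Retsat, a retinol saturase, was closer, at 1.5 ± 0.11 (SE).

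Digestion and uptake at the brush border were also higher on most counts. Among 16 hydrolases 13 were called higher and 2 lower (median 1.43). Lct had 241, 91.3 and 47.8 CPM in KO-labelled libraries and 145, 137 and 105 CPM in wild-type libraries, and in the Fabp6-high cells 12.2, 4.82 and 0 CPM in KO-labelled libraries and 2.78, 3.62 and 1.81 CPM in wild-type libraries, with a difference of 5.17 ± 0.16 on the log2 scale (SE; edgeR adjusted p = 6.4e-19). The phosphatase Alpi (2.62 ± 0.09), Anpep (2.35 ± 0.09), the peptidase Mme (4.60 ± 0.16) and sucrase-isomaltase, Sis (1.20 ± 0.08), were higher by log2 ± SE. Mep1a, a meprin subunit on the distal list too, was lower, at −1.96 ± 0.11. Of 14 transporters of sugars, peptides and amino acids, 13 were higher and 1, the glutamate transporter Slc1a1, lower (median 1.43). Slc2a2 had 94.8 to 132 CPM (median 128) in the apolipoprotein-high cells and 0 to 9.63 CPM (median 3.62) in the Fabp6-high cells, a log2 fold change of 5.13 ± 0.17 (SE). The glucose cotransporter Slc5a1 had 1.51 ± 0.10, the peptide transporter Slc15a1 3.36 ± 0.24 and the neutral amino acid transporter Slc6a19 4.15 ± 0.22.

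Genes listed as proximal were higher in 27 of 28 cases (median 2.95), and Slc40a1, the iron exporter ferroportin, was lower, at −0.87 ± 0.16 (SE). The list was written with earlier results of these data known and holds Rbp2, Lct and Fabp1, so its direction is no independent evidence. Creb3l3 had 131 to 284 CPM (median 223) in the apolipoprotein-high cells and 3.36 to 16.1 CPM (median 9.01) in the Fabp6-high cells, a log2 fold change of 4.81 ± 0.12 (SE). Gata4, the transcription factor that sets jejunal identity in the mouse, had 37.3 to 52.0 CPM (median 44.2) in the apolipoprotein-high cells and 11.6 to 24.6 CPM (median 15.7) in the Fabp6-high cells, a smaller difference of 1.40 ± 0.14 (SE, edgeR adjusted p = 4.1e-09). Enzymes that clear foreign compounds overlapped with this list in part, and 20 of 22 were higher and 0 lower (median 2.04). The glutathione transferase Gstm3 had 4.20 ± 0.11 and the alcohol dehydrogenase Adh6a 4.15 ± 0.12. The P450 enzyme Cyp2b10 had 15.2 to 128 CPM (median 64.5) in the apolipoprotein-high cells and 0 to 1.6 CPM (median 0.849) in the Fabp6-high cells, and Nr1i3, the xenobiotic receptor known to drive it, differed by 2.13 ± 0.15 (SE).

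Distal genes were the counterpart. Of 13 tested besides Fabp6, 10 were called lower and 1 higher, with a median of −1.0; it was −0.65 without KO-labelled replicate 1 (9 lower, 1 higher) and −0.61 without KO-labelled replicate 2 (8 lower, 2 higher). Slc10a2, which imports bile acids in the ileum, had 0 to 0.889 CPM (median 0) in the apolipoprotein-high cells and 9.93 to 16.1 CPM (median 12) in the Fabp6-high cells. The export pair Slc51a and Slc51b differed far less. Slc51b had 208, 188 and 191 CPM in KO-labelled libraries and 203, 212 and 177 CPM in wild-type libraries, and in the Fabp6-high cells 342, 335 and 309 CPM in KO-labelled libraries and 326, 313 and 269 CPM in wild-type libraries. Its log2 fold change was −0.53 ± 0.06 (SE, edgeR adjusted p = 2.6e-08), and that of Slc51a −0.50 ± 0.06. The bile acid receptor Nr1h4 had −1.10 ± 0.09 and Guca2a, the guanylin precursor, −1.33 ± 0.10, while the mucin Muc3 was slightly higher (0.32 ± 0.06).

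The genes with the largest fold changes and at least 100 CPM in the higher class were Fabp1, Reg1, Rbp2, Lct, Slc2a2, Creb3l3, Mme, Papss2, Gstm3 and Adh6a. Reg1, a secreted lectin of the Reg family, had 3248 to 7256 CPM (median 4072) in the apolipoprotein-high cells and 41.9 to 300.1 CPM (median 79.5) in the Fabp6-high cells, a log2 fold change of 5.63 ± 0.15 (SE). Papss2, which makes the sulfate donor of sulfotransferases, had 4.54 ± 0.11. On the other side stood Cd9, Fgfbp1, Tspan1, Gsdmc2, Mgat4c, 1810065E05Rik, Ccnd1, Gsdmc4, Scd2 and Cldn2. The tetraspanin Cd9 had 17.7, 21.8 and 20.2 CPM in KO-labelled libraries and 13.7, 17.8 and 41.0 CPM in wild-type libraries, and in the Fabp6-high cells 223, 289 and 396 CPM in KO-labelled libraries and 203, 301 and 232 CPM in wild-type libraries, a log2 fold change of −3.48 ± 0.13 (SE). Ccnd1, the G1 cyclin D1, had −2.51 ± 0.11 and Cldn2, a pore-forming claudin, −2.46 ± 0.10. Gsdmc2 and Gsdmc4 are near copies within the gasdermin C cluster, so their separate counts are uncertain.

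Immune genes split. All 6 tested MHC class II genes were lower (median −1.34), and Cd74, their invariant chain, had −1.31 ± 0.09 (SE). All 13 MHC class I and immunoproteasome genes were higher (median 0.52), led in level by B2m (0.27 ± 0.05), H2-D1 (0.25 ± 0.05), H2-K1 (0.59 ± 0.06) and H2-Q2 (2.15 ± 0.08). After thinning each cell to 3000 UMIs only 4 of the 13 were called (median 0.20). H2 class I genes resemble each other, and reads may be split between them. Of 19 interferon response genes 12 were higher and 1, Irf8, lower (median 0.94). The median was 0.51 after thinning (7 of 14 higher), and without KO-labelled replicate 1 there were 8 of 17 called higher. The antimicrobial list also split, with 6 of 10 higher and 3 lower (median 0.54). Reg3b (−0.77 ± 0.14), Reg3g (−0.79 ± 0.12) and Rbp7 (−1.28 ± 0.10) were lower. Reg1, the anti-bacterial surface protein Lypd8 (0.65 ± 0.05), the chemokine Ccl25 (0.63 ± 0.05) and the cytokine Il18 (2.45 ± 0.08) were higher.

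Cholesterol synthesis genes lay on the lower side, with 13 of 20 lower and only Insig1 higher (median −0.36; Insig1 0.39 ± 0.10, SE). Fdps had −0.32 ± 0.08. Fatty acid oxidation was mostly higher, with 14 of 19 higher and 2 lower (median 0.53; Cyp4f14 1.05 ± 0.07). Immediate early and heat shock genes were higher in 13 of 17 cases and lower in 1 (median 0.76; Jun 1.15 ± 0.07). Of 8 villus tip genes besides Ada 6 were higher and 1 lower (median 0.48). Iron and calcium genes were mixed, with 6 of 11 higher and 2 lower. Fth1 had 1.41 ± 0.05 and S100g, the vitamin D dependent calcium carrier, 3.12 ± 0.17. Of 23 enterocyte transcription factors 10 were higher and 7 lower (median 0.06), with Cdx1 at −1.19 ± 0.06, Cdx2 at −0.49 ± 0.08 and Klf5 at −0.49 ± 0.06. Clock genes had 3 of 8 higher (median 0.62; Nr1d1 1.61 ± 0.21), and adhesion genes 2 higher and 2 lower of 11 (median −0.02; Epcam −0.31 ± 0.04).

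**Figure D3:**
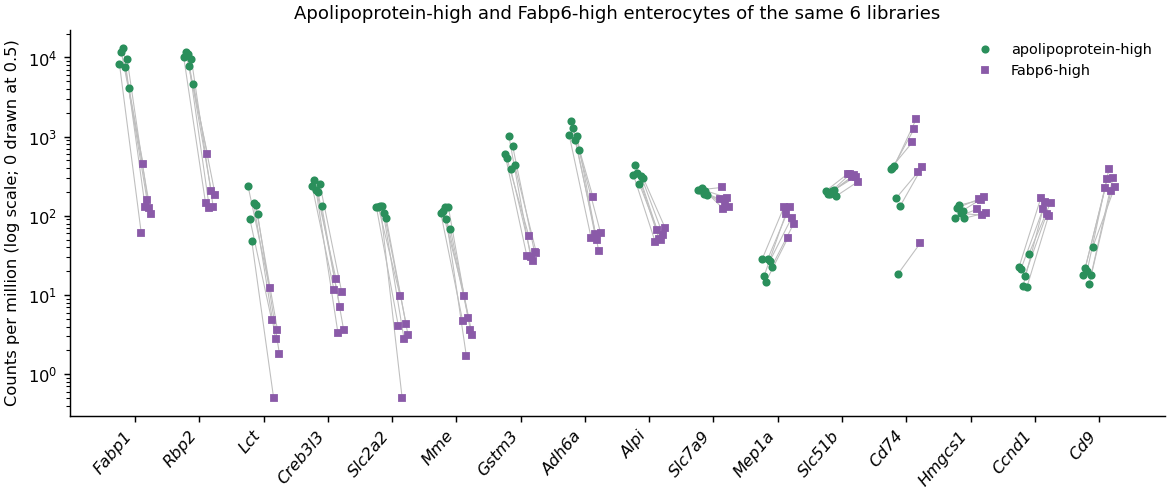
Level (CPM, log axis, 0 drawn at 0.5) of 16 genes in apolipoprotein-high (green circles) and Fabp6-high enterocytes (purple squares), 1 point per library, grey lines joining classes of a library. Fabp1 had 4139 to 13254 CPM in the apolipoprotein-high cells and 60.5 to 453 CPM in the Fabp6-high cells, while Slc51b, Cd74 and Cd9 were lower in the apolipoprotein-high cells of all 6 libraries.

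A stricter Fabp6 limit of 80 per 10000 for the compared class, added after the values were seen, left 344 cells and 2972 calls. Of these 2781 were shared with the wider class, 93.6% of the stricter and 70.4% of the wider calls. Proximal genes were then higher in 27 cases and lower in 1, lipid genes higher in 23 of 25, and distal genes lower in 10 of 13 with 0 higher. Medians moved to 0.57 for interferon genes (9 of 21 higher), −0.55 for cholesterol synthesis (16 of 20 lower), 0.29 for clock genes and 0.30 for villus tip genes. The apolipoprotein-high cells that held Ada were only 18, from 5 libraries. Against them edgeR called 30 of 7699 genes (0.39%), 13 higher and 17 lower in the chosen cells, and DESeq2 called 0, with 366 genes at an unadjusted p under 0.05. Reg3b was higher in the chosen cells (log2 fold change 1.82 ± 0.15, SE). The lower genes held the proliferation markers Hist1h2ap (−2.78 ± 0.36) and Top2a (−2.30 ± 0.49). Stmn1 (−1.90 ± 0.22), the interferon response gene Ifit1 (−2.25 ± 0.39) and S100g (−1.02 ± 0.16) were lower too. Ada-positive cells had median depths of 17776 and 12176 UMIs in KO-labelled replicates 1 and 2 and 25284, 13845 and 22238 in wild-type libraries. The chosen cells of these libraries had 17973 and 10111 UMIs, and 21185, 11847 and 12069 in wild-type libraries. The part of depth and of mixed barcodes in these calls was not tested. Leaving out 1 library gave between 9 calls (without wild-type replicate 1) and 85 (without KO-labelled replicate 1), so the count depended on single libraries.

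The share of apolipoprotein-high enterocytes did not separate the genotypes. They made 3.15% (95% Wilson interval 2.57 to 3.87), 6.12% (5.53 to 6.78) and 1.71% (1.37 to 2.13) of kept barcodes in KO-labelled libraries. In wild-type libraries they made 5.12% (4.36 to 6.01), 3.69% (3.20 to 4.24) and 2.12% (1.76 to 2.55). The intervals cover counting error only. Means were 3.66% ± 2.25 in KO-labelled and 3.64% ± 1.5 in wild-type libraries (SD, n = 3 each), a difference of 0.0195 percentage points (exact 2-sided permutation test, p = 1; the smallest possible is 0.1). KO-labelled replicate 2 held the highest share and KO-labelled replicate 3 the lowest, so the wild-type libraries lay inside the KO-labelled range. Of the cells in all 3 enterocyte gates they made 51.8%, 80.9% and 43.8% in KO-labelled libraries and 56.1%, 58.1% and 34.3% in wild-type libraries (exact 2-sided permutation test, p = 0.6). How much duodenum, jejunum and ileum entered each library is not given in the sources used here; its part in these shares was not tested.

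**Figure D4:**
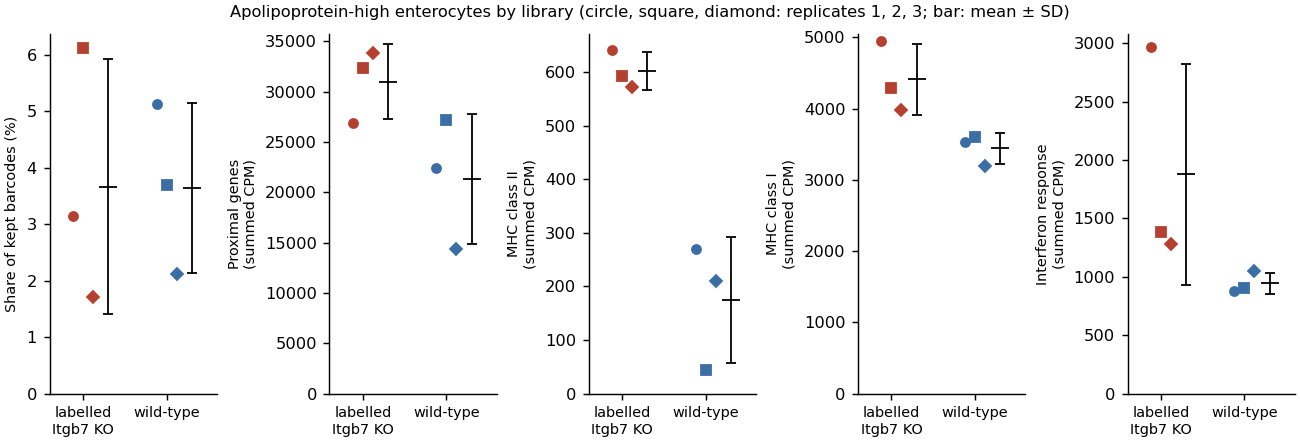
Values of the apolipoprotein-high enterocytes by library: share of kept barcodes (%), and summed levels (CPM) of the proximal, MHC class II, MHC class I and interferon lists. Red marks are KO-labelled and blue wild-type libraries, symbols give the replicate, and bars are mean ± SD (n = 3). Shares overlap, and MHC class II sums of 572 to 640.5 CPM in KO-labelled libraries lie above those of wild-type libraries.

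No gene passed the test between genotypes within the chosen cells. In edgeR's quasi-likelihood fit 0 of 8117 genes (0%) had an adjusted p under 0.05, with 272 at an unadjusted p under 0.05 (157 higher and 115 lower in KO-labelled libraries). DESeq2 also called 0, with 174 at an unadjusted p under 0.05. The median log2 fold change was 0.01. Among 3587 well expressed genes 279 (7.78%) did not overlap between the groups, 125 higher and 154 lower. Every adjusted p rounded to 1.0 (edgeR), so the values that follow are descriptions, and their direction rests on labels that Itgb7 transcript counts ran against.

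Fat absorption genes had a median fold change near 0, while their summed level did not overlap between the groups. Of 25 lipid genes 0 were called, 15 had positive fold changes, and the median log2 fold change was 0.10. The list summed to 20997, 20736 and 22595 CPM in KO-labelled libraries. In wild-type libraries it summed to 18629, 19528 and 11056 CPM, with wild-type replicate 3 far below the others. Mttp (ENSMUSG00000028158, chr3:138089854-138144968, minus strand) had 802, 1030.2 and 1109 CPM in KO-labelled libraries and 746, 932 and 557 CPM in wild-type libraries, 0.40 ± 0.21 on the log2 scale (SE). The groups overlapped for Mttp, and wild-type replicate 3 was the lowest. Fabp1 had 8357, 11648 and 13254 CPM in KO-labelled libraries and 7562, 9529.8 and 4139 CPM in wild-type libraries, log2 0.65 ± 0.29 (SE), again with wild-type replicate 3 lowest and the groups overlapping. Without wild-type replicate 3 the list's median was −0.08, and without KO-labelled replicate 1 it was −0.11. Rbp2, whose KO-labelled values lay above all 3 wild-type values, had a log2 fold change of 0.59 ± 0.25 (SE), and the 10 vitamin A genes a median of 0.09 with 0 called (0.05 to 0.16 with 1 library left out). The vitamin A list, Rbp2 included, summed to 11261, 12832 and 11890 CPM in KO-labelled libraries. Its wild-type sums were 8872, 10610 and 5548 CPM, also without overlap and lowest in wild-type replicate 3. Lct had 0.03 ± 0.46 (SE), its highest and its lowest level both in KO-labelled libraries.

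Proximal genes summed to 26859, 32356 and 33843 CPM in KO-labelled libraries and 22459, 27157 and 14394 CPM in wild-type libraries, so the groups overlapped and wild-type replicate 3 was lowest. Of 28 tested genes 26 had positive fold changes and 0 were called, with a median of 0.40. Without wild-type replicate 3 the median was 0.22, with 19 positive. The 22 xenobiotic genes ran alike (21 positive, 0 called, median 0.41, or 0.22 without wild-type replicate 3). Brush border hydrolases (median 0.05), transporters (0.01), fatty acid oxidation (0.10, or −0.06 without wild-type replicate 3 and 0.24 without wild-type replicate 2), cholesterol synthesis (−0.02), transcription factors (0.02), distal genes (0.01), antimicrobial genes (0.0012), villus tip genes (0.17), iron and calcium genes (0.05) and clock genes (−0.04) lay near 0, and no gene of these lists was called. Immediate early and heat shock genes had a median of 0.35 with 12 of 17 positive and 0 called. It was 0.05 without KO-labelled replicate 3 and 0.22 to 0.24 without KO-labelled replicate 2, wild-type replicate 1 or wild-type replicate 3. Without KO-labelled replicate 1 or wild-type replicate 2 it was 0.56 and 0.53. Paneth markers had a median of −0.94, with 6 of 6 tested genes negative, and goblet markers −0.55, with 6 of 6 negative, 0 called in either. Paneth sums were 3326, 173 and 184 CPM in KO-labelled and 6723, 169.8 and 342 CPM in wild-type libraries. Goblet sums were 2610, 1144 and 1102 CPM in KO-labelled and 3340, 1325 and 2329 CPM in wild-type libraries. Both sums overlapped between the groups and were highest in wild-type replicate 1. Enteroendocrine markers had a median of 0.39 (7 of 7 positive) and proliferation markers 0.16 (8 of 10 positive), also with 0 called. The part of these markers in the differences was not tested.

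MHC class II genes had the largest median fold change of the lists tested, a place that rested on wild-type replicate 2. Without that library the median was 1.29 for MHC class II and 1.475 for interferon genes. Without KO-labelled replicate 2 they were nearly level, at 1.96 and 1.91. With all libraries interferon genes came next, a place that rested on KO-labelled replicate 1. All 6 MHC class II genes were positive (median 1.83, 0 called), and their sum was 640.5, 592 and 572 CPM in KO-labelled libraries and 270.2, 44.5 and 209 CPM in wild-type libraries. Cd74 had 394, 399 and 430.3 CPM in KO-labelled libraries and 168, 18.7 and 133 CPM in wild-type libraries, log2 1.92 ± 0.58 (SE). H2-Ab1, a class II beta chain (ENSMUSG00000073421, chr17:34257689-34269419, plus strand), had 119, 97.9 and 71.7 CPM in KO-labelled libraries and 48.2, 12 and 43.2 CPM in wild-type libraries, log2 1.5 ± 0.42 (SE). The groups did not overlap for either gene, and wild-type replicate 2 was far below the other wild-type libraries. Without 1 library the list's median ran from 1.29 to 2.68. In the same cells Ptprc, which marks blood-derived cells, had 0 UMIs, and the 9 markers of other immune cells summed to at most 3.03 CPM. Whether RNA of immune cells had a part in the class II values was not tested.

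The 13 MHC class I and immunoproteasome genes were all positive too (median 0.37, or 0.24 without wild-type replicate 3, 0 called), with sums of 4954, 4287 and 3983 CPM in KO-labelled libraries and 3537, 3597 and 3188 CPM in wild-type libraries. Psmb8, a catalytic subunit of the immunoproteasome (ENSMUSG00000024338, chr17:34197721-34201454, plus strand), had 374, 308 and 355 CPM in KO-labelled libraries and 205, 167 and 190.4 CPM in wild-type libraries, log2 0.89 ± 0.18 (SE), with no overlap. H2-D1 had 617, 668 and 598 CPM in KO-labelled libraries and 412, 459.7 and 444 CPM in wild-type libraries, log2 0.53 ± 0.14 (SE), also without overlap. For 17 interferon response genes the fold change was positive in all 17 (median 1.35, 0 called). Their sum was 2971, 1383 and 1286 CPM in KO-labelled libraries and 883, 906 and 1046 CPM in wild-type libraries, so KO-labelled replicate 1 stood far above the rest. Without that library the median was 0.50, below the 0.56 of immediate early and heat shock genes. With replicate 1 of both groups left out it was 0.35, below that list (0.51) and the proximal genes (0.40). Irf7, a regulator of type I interferon, had 136, 39.8 and 46.0 CPM in KO-labelled libraries and 21.2, 24.5 and 19 CPM in wild-type libraries, log2 1.82 ± 0.46 (SE). Isg15 had 189, 48.5 and 64.4 CPM in KO-labelled libraries and 18.9, 33.8 and 41.7 CPM in wild-type libraries, log2 1.78 ± 0.51 (SE), highest in KO-labelled replicate 1.

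Other non-overlapping genes of lowest unadjusted p were Hspa1a, AW112010, Tmem171, H2-T23 and Trim30d on the higher side. Hspa1a, an inducible heat shock protein whose near copy Hspa1b can share its reads, had 69.7, 149 and 197 CPM in KO-labelled libraries and 17.6, 52.9 and 9.86 CPM in wild-type libraries, log2 2.31 ± 0.51 (SE). On the lower side were Osr2, Bri3bp, Pdxk, Pllp, Wwc1, U2af2, Hnrnpul1 and Zyx. The transcription factor Osr2 had 54.4, 55.6 and 51.5 CPM in KO-labelled libraries and 80.7, 80.9 and 78.9 CPM in wild-type libraries, log2 −0.56 ± 0.15 (SE). Its spread within each group was narrow, which a choice by low p and no overlap favours. Slc40a1 had 19.6, 67.1 and 49.7 CPM in KO-labelled libraries and 14.3, 20.9 and 15.2 CPM in wild-type libraries, log2 1.44 ± 0.37 (SE). Its groups overlapped, and it was the only gene called when KO-labelled replicate 1 was left out.

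Partners of the β7 integrin had little transcript here. Itgae, its αE partner, had 1 UMI in KO-labelled replicate 2 and 2 in wild-type replicate 1, and Itga4 1 UMI in KO-labelled replicate 2. Cdh1, E-cadherin, the epithelial ligand of αEβ7, had 175, 128 and 118 CPM in KO-labelled libraries and 174, 163 and 191 CPM in wild-type libraries, log2 −0.30 ± 0.20 (SE), and the groups overlapped. Itgb1 had −0.27 ± 0.20 and Epcam 0.06 ± 0.14. The 10 adhesion genes tested had a median of −0.10 with 0 called. Agpat4 and Mtus2 were followed because earlier results of these data had named them. Agpat4 had 0.611, 0.545 and 0 CPM in KO-labelled libraries and 4.56, 4.0 and 5.31 CPM in wild-type libraries. Mtus2 had 1.83, 0.818 and 1.84 CPM in KO-labelled libraries and 4.23, 7.11 and 4.55 CPM in wild-type libraries. Both were below the count filter, so no fold change was fitted. Neither overlapped between the groups, which is no independent evidence, since the same data had named them. Of all tested genes 683 (8.41%) did not overlap.

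**Figure D5:**
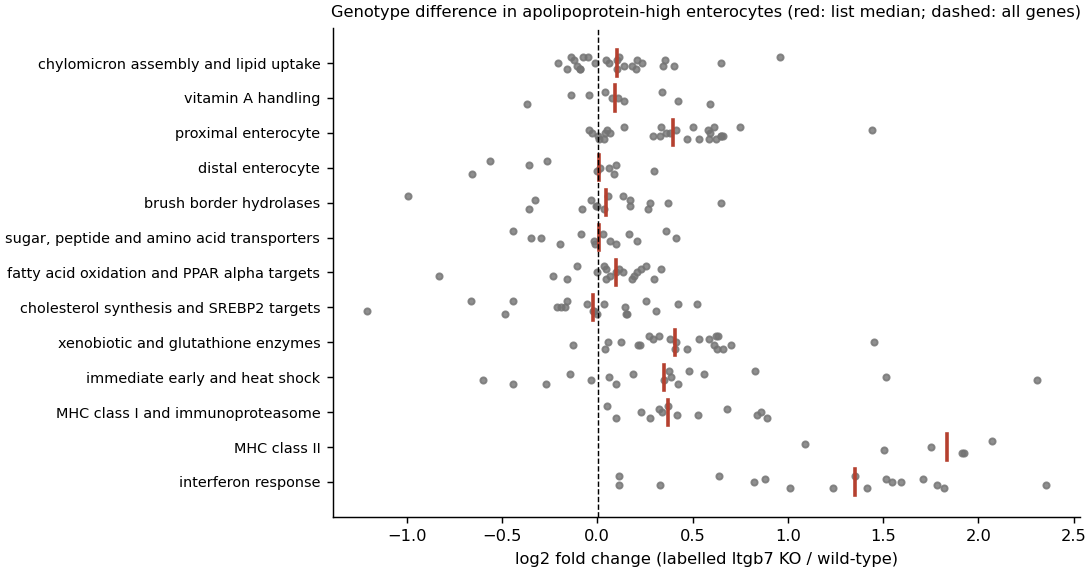
Log2 fold change (KO-labelled over wild-type) of each tested gene in 13 lists within apolipoprotein-high enterocytes; red bars are list medians and the dashed line is the median of all genes. MHC class II (1.83) and interferon (1.35) medians lie farthest right, and no gene passed the adjusted test. Interferon stood at 0.50 without KO-labelled replicate 1, and MHC class II at 1.29, below interferon, without wild-type replicate 2.

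The genotype values in the chosen cells were set beside those of the Fabp6-high cells, and the difference between them was tested with a class by genotype term. It called 0 of 8788 genes (0%) in edgeR, with 338 at an unadjusted p under 0.05, and 0 in DESeq2, with 63. In the Fabp6-high cells the median log2 fold change was 1.81 for MHC class II (6 of 6 positive), 1.1 for interferon genes (14 of 14) and 0.52 for MHC class I genes (13 of 13). Their MHC class II sums were 1370.5, 1807 and 2310.0 CPM in KO-labelled libraries and 607, 92.0 and 599 CPM in wild-type libraries. Wild-type replicate 2 was thus the lowest library in both classes. Without KO-labelled replicate 1 the term called 6 genes and without KO-labelled replicate 2 it called 5, Fabp1 and Reg1 among the 5; leaving out any other library gave 0.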

How the data were processed

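The authors deposited matrices of UMI counts per gene and barcode, with gene and barcode names (other columns) beside them, from droplet 3' single-cell RNA-seq; bcl2fastq 2.17.1.14, Cell Ranger 2.1.1, Seurat and mm10 are named per the submitters' processing notes, without roles or order. The barcode limits were applied to the deposited counts, and counts were summed over the chosen cells of each library and expressed as CPM, per 1000000 UMIs. Members and gene lists were chosen with earlier results of these data known.

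Sums were tested with edgeR 4.0.16 in R 4.3.3 (TMM scaling, low-count filter, quasi-likelihood fit on genotype, Benjamini-Hochberg adjustment at 0.05), and DESeq2 1.42.0 was the alternative. The SE of an edgeR log2 fold change was its absolute value divided by the square root of the F statistic. A prior count of 2 was used only for the log2 CPM of the pairing check. Classes were compared with the library as a block. Genes of the rule were left out of the counts of calls. Scripts were tested on simulated data. Python 3.11.15 and scanpy 1.11.5 (Scrublet scores, 0.8% per 1000 barcodes; doublets were marked, not removed) did the rest; thinned values used 3000 UMIs per barcode, which left out 445 kept barcodes. Positions come from GENCODE M21, which matched 27645 of 27998 gene identifiers (98.7%).

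Deviations of same-numbered libraries from their group means correlated at 0.74, 0.41 and 0.23 over 3595 genes. KO-labelled replicate 3 lay closer to wild-type replicate 2 (0.57), so the numbers did not clearly pair replicates 2 and 3. KO-labelled replicate 1 correlated at −0.67 and −0.28 with wild-type replicates 2 and 3. Wild-type replicate 1 correlated at −0.46 and −0.61 with KO-labelled replicates 2 and 3. The serial-number block also set replicate 1 of both groups apart. The main genotype fit held no pairing, and the replicate block was an alternative.

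Genes named by rule were called genes (up to 20, otherwise the 10 of lowest p in each direction), up to 8 per direction of lowest p among non-overlapping genes whose mean log2 CPM reached 5, a few integrin-related genes, the highest 4 of each list, the 10 called genes per direction with the largest fold and at least 100 CPM, and the 10 genes most like the apolipoprotein sum. Other genes were named for their roles after values were seen. Alternatives were another tool, no count filter, each library left out, a replicate or serial-number block, other limits, thinning and doublet removal.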

Additional observations from a re-analysis of the deposited data

How the results depend on the processing

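The number of genes called between genotypes was 0 with DESeq2, the replicate block, a block for serial numbers of the labels, an apolipoprotein limit of 80, Ada not used, thinning to 3000 UMIs and doublet-scored barcodes left out. It was 28 with no filter on low counts (26 higher, with Cd74, Irf7 and Psmb8, and 2 lower) and 4 with replicates 2 and 3 only, a setting chosen after seeing the data. Leaving out 1 library gave 0 to 1. Neither block changed a call. The lowest adjusted p (edgeR) was 0.9996 in the main fit, 0.16 with the replicate block and 0.052 with the serial-number block. Genes at an unadjusted p under 0.05 (edgeR) numbered 272 of 8117 in the main fit. They numbered 533 of 8507 with the replicate block and 638 of 8507 with the serial-number block.

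Calls against Fabp6-high cells numbered 1841 after thinning, of which 1730 were shared with the 3949 of the main test; DESeq2 called 2922, and leaving out 1 library gave 3418 to 3890. Calls against Ada-positive cells were 0 with DESeq2, 58 after thinning and 9 to 85 with 1 library left out. All 58 after thinning were higher in the chosen cells, where the median log2 fold change of all genes was 0.92. The class by genotype term called 7 genes with no filter on low counts and 0 to 6 with 1 library left out. The cause of these changes was not tested.

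The share differed by 9.31 percentage points of the 3 enterocyte gates (58.8% ± 19.5 in KO-labelled and 49.5% ± 13.2 in wild-type libraries). Other limits gave −0.0106 to 0.25 points, 1 library left out −1.21 to 0.996, and the replicate block 0.0195 with pair differences of −1.97, 2.44 and −0.413.

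Libraries held 78 to 351 chosen cells and 543748 to 3668087 UMIs in them, so genes of a few CPM rest on few UMIs.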
